A study of Caenorhabditis elegans with 4 samples.

Results

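The 346 regions described here are the ChIP-seq peaks of LIN-11 that lie on chromosome V of Caenorhabditis elegans, out of 2381 in the whole list. They were chosen by their chromosome alone, and the low density of peaks on V was already known from earlier results of these data. The list came from 4 libraries of hermaphrodites at the second larval stage (L2), 2 of ChIP DNA and 2 of input DNA, which the authors combined. All animals were of strain OP62, grown at 20 °C and crosslinked with 2% formaldehyde. The strain has the mutation unc-119(ed3) on chromosome III and carries the transgene wgIs62. This transgene was put in by bombardment and holds lin-11::TY1::EGFP::3xFLAG, which makes LIN-11 fused to EGFP, with unc-119(+) as rescue marker. An affinity-purified goat serum against GFP was used to recover the tagged protein with its DNA. An untagged strain was not analysed here, so signal that does not depend on the tag cannot be told apart from LIN-11. Whole larvae were used, and the cells in which LIN-11 is made are a small part of them.

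LIN-11 is a LIM homeodomain transcription factor. Its homeodomain binds DNA and its LIM domains bind other proteins, and in the worm it is known for the fates of vulval and uterine cells and of some interneurons. The chromosomes of the worm have no single centromere. On the autosomes a gene-rich centre with little recombination lies between arms that recombine more and are richer in repeats. Chromosome V is known for its large families of chemoreceptor genes, which let sensory neurons detect odours and tastes, and of nuclear hormone receptor genes, which encode ligand-regulated transcription factors. In a RefSeq gene table of the assembly WBcel235, 888 of 1309 genes with a chemoreceptor family symbol (67.8%) and 167 of 269 nhr genes (62.1%) were on V. The coordinates of the peaks are on WormBase WS180, which differs from that assembly, so no peak was assigned to a gene and no sequence is printed.

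LIN-11 peaks were thinly spread over chromosome V. Its 346 peaks lay over an extent of 20.8 Mb, the longest of the 6, at 16.6 peaks per Mb (exact Poisson 95% interval 14.9 to 18.4). The extent of a chromosome was taken as the end of its last peak. The density of V was 0.432 times that of chromosome I (95% interval 0.377 to 0.494, adjusted p = 9.52e-36 in a two-sided exact binomial test). It was 0.639 times that of chromosome II (0.551 to 0.740, exact adjusted p = 2.04e-09) and 0.618 times that of chromosome III (0.532 to 0.717, exact adjusted p = 3.73e-10). It was 0.802 times that of the X chromosome (0.690 to 0.931, exact adjusted p = 0.00414). Against chromosome IV the ratio was 0.875 (0.750 to 1.02), which missed the threshold of 0.05 (exact adjusted p = 0.0886). These p-values were adjusted over the 5 chromosomes by the Benjamini-Hochberg method, and the exact tests count close neighbours as independent peaks. Because the low density of V was known from these data beforehand, the p-values describe it and are not independent support for it.

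The order of IV and X against V rested on the peaks used. Once neighbours separated by under 1 kb had been joined, the ratio of V to IV passed the threshold at 0.842 (exact binomial adjusted p = 0.0340). Among peaks with a q-value below 1e-05, V had 0.668 times the density of IV (exact adjusted p = 0.00599), and its ratio to X of 0.802 no longer passed (exact adjusted p = 0.142).

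Set against genes in place of length, V stood further from the rest. The RefSeq table lists 4995 protein-coding genes on V, which makes 69.3 peaks per 1000 protein-coding genes (exact Poisson 95% interval 62.2 to 77.0). The other 5 chromosomes together had 135.9 (130.04 to 141.9), with a lowest value of 99.97 (89.4 to 111.4) on IV and a highest of 199.9 (183.9 to 216.9) on I. On this scale the interval of V did not overlap that of any other chromosome, IV included, though no test was run. Only the chromosome of each gene was taken from the table, not its position.

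For arms against centre, chromosome V was cut at positions 6947574 and 13895149 into 3 segments of equal length, a left arm, a centre and a right arm. These segments stand in for the domains of recombination, whose bounds on WS180 were not used here. The left arm, the centre and the right arm held 108, 130 and 108 peaks. Their densities were 15.5 peaks per Mb (12.8 to 18.8) in the left arm, 18.7 (15.6 to 22.2) in the centre and 15.5 (12.8 to 18.8) in the right arm. The 2 arms thus had the same count (density ratio 1, 95% interval 0.759 to 1.32, exact binomial adjusted p = 1). The centre had 1.20 times the density of the arms (0.961 to 1.50), which did not pass the exact test (adjusted p = 0.123). Counted over all listed peaks, V was symmetric in the totals of its arms, though not in finer bins. The bin from 80 to 85% of the extent had 4.80 peaks per Mb, against 13.4 in the mirrored bin from 15 to 20%.

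**Figure D1:**
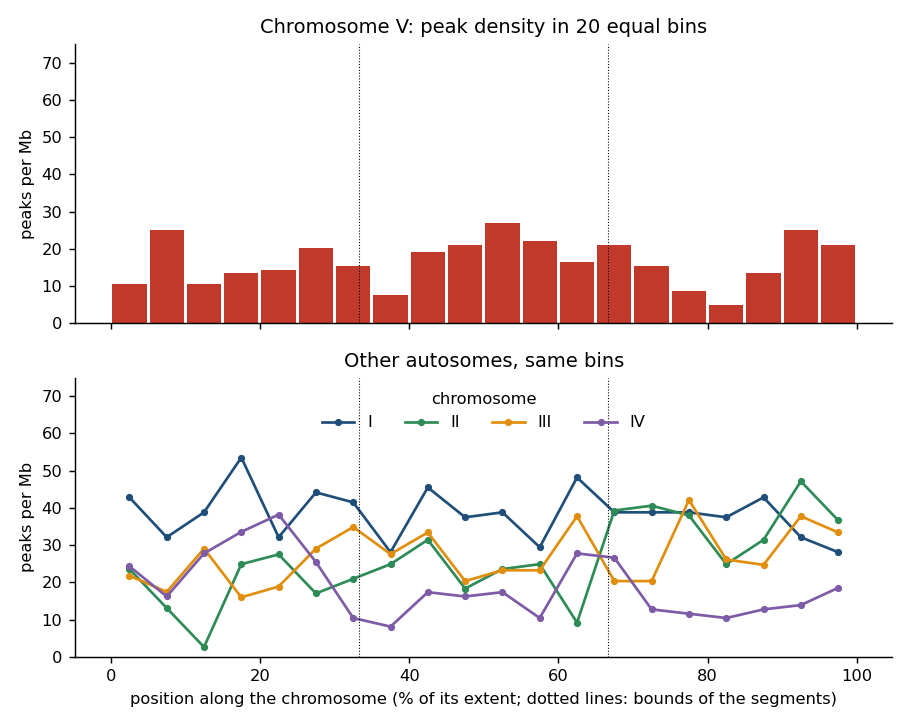
Peak density (peaks per Mb) in 20 equal bins along chromosome V (bars, upper panel) and along the other autosomes (lines, lower panel), against the position in percent of the extent. On V the fullest bin lies just right of the middle, at 26.9 peaks per Mb, and the emptiest, at 4.80 peaks per Mb, lies from 80 to 85% of the extent.

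Each segment of V was below the same segment of the other 4 autosomes combined. The left arm of V had 0.569 times their density (95% interval 0.459 to 0.700, exact binomial adjusted p = 4.33e-08). The right arm had 0.539 times their density (0.435 to 0.663, exact adjusted p = 1.94e-09), and the centre 0.731 times (0.598 to 0.887, exact adjusted p = 0.00198). All 5 tests by segment were adjusted together. Those against the other autosomes also re-use the low density of V that was known beforehand. Chromosome I, which has the highest density, carried part of the gap at the centre. Without it the ratio of the centre was 0.860 and no longer passed (exact adjusted p = 0.183), while the left and right arms stayed at 0.684 and 0.588 (exact adjusted p = 0.00102 and 1.60e-06). Among the best-ranked 1190 peaks of the list the centre ratio was 0.789 and did not pass either (exact adjusted p = 0.0912). The difference between the ratios of centre and arms was not tested. Chromosome IV alone did not follow this order. Its centre had 15.8 peaks per Mb (12.7 to 19.4) and its right arm 15.1 (12.1 to 18.6), both nominally below those of V, with overlapping intervals and no test.

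**Figure D2:**
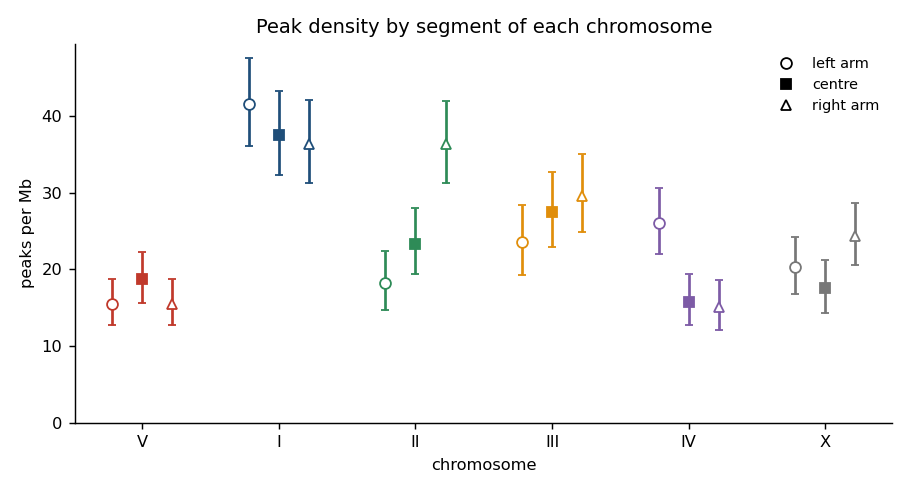
Peak density (peaks per Mb) in the left, central and right segment of each chromosome. Bars are exact Poisson 95% intervals, which cover counting error only. The arms of V, at 15.5 peaks per Mb each, have equal density, whereas the left and right arms stand at 18.3 and 36.3 on II and at 26.0 and 15.1 on IV.

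By the share of q-values below 1e-05, the centre of V stood above its arms. Each q-value was computed by the authors, for ChIP against input in that peak, and serves in the comparisons to describe, rank or filter. On V, 91 of 346 peaks (26.3%) had a q-value below 1e-05, against 31.0% of the whole list. The same share was 26.3% on X and 25.9% on II, against 34.5% on IV, 34.6% on I and 36.8% on III. Of the 91 on V, the centre held 46 among its 130 peaks, or 35.4% (exact Clopper-Pearson 95% interval 27.2 to 44.2%). Both arms together held 45 among 216, or 20.8% (15.6 to 26.9%), with 22 in the left arm and 23 in the right. The median q-value was 0.000103 in the centre, against 0.000888 in the left arm and 0.000507 in the right. At the stricter limit of 1e-10 the centre did not stand apart from the left arm. It held 11 of 130 peaks, against 9 of 108 on the left and 5 of 108 on the right. Together these were 25 of 346 (7.23%), against 11.2% of the whole list. At the limit of 1e-05, segments of other chromosomes reached higher shares than the centre of V, up to 46.0% in the right arm of IV.

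The density of the centre over the arms therefore depended on the limit set on the q-value. It was 1.20 over all 346 peaks of V, 1.64 among the best-ranked 1190 peaks of the list (exact binomial adjusted p = 0.00330) and 2.04 for peaks with a q-value below 1e-05 (95% interval 1.33 to 3.15, exact adjusted p = 0.00128). With a centre widened to the middle 50% of the extent it was 1.26 and just passed the exact test (adjusted p = 0.0448). Among peaks below 1e-05 the same ratio was 1.02 on I (95% interval 0.745 to 1.37), 0.747 on II (0.466 to 1.17), 0.894 on III (0.606 to 1.30), 0.723 on IV (0.460 to 1.11) and 0.783 on X (0.482 to 1.24). The interval of V was the one of the 6 that lay wholly above 1, and the difference between chromosomes was not tested. Input tags inferred from the q-values, given in the closing section, were also highest in the centre, with a median of 49 per peak against 38 in the left arm and 37 in the right, and their part in the pattern was not tested.

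**Figure D3:**
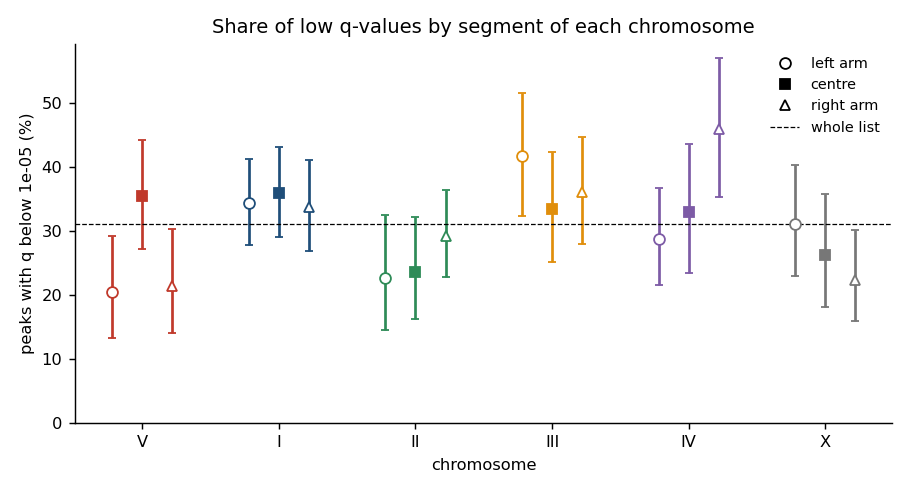
Share of peaks with a q-value below 1e-05 (percent) in each segment of each chromosome, with exact Clopper-Pearson 95% intervals and the share in the whole list (31.0%) as a dashed line. On V the centre stands at 35.4%, and the left and right arms at 20.4% and 21.3%.

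In bins of 1 Mb, the 20 full bins of V held 6 to 29 peaks, with a median of 15. The 2 fullest bins were neighbours, from 9 to 11 Mb, with 29 and 27 peaks, followed by 1 to 2 Mb and 19 to 20 Mb with 24 each. The bin just left of the fullest one, from 8 to 9 Mb, was among the emptiest with 6, as was 17 to 18 Mb. On IV, the next chromosome in density, the full bins held 8 to 34 peaks with a median of 18.

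Long stretches without a detected peak marked V out in number more than in their greatest length. Of the 208 full windows of 100 kb on V, 59 held no peak midpoint (28.4%), against 20.9% on IV, 19.3% on X, 17.1% on II, 9.49% on III and 4.03% on I. Of the 345 stretches between neighbouring peaks of V, 20 were longer than 200 kb, against 13 on IV, 8 on X, 7 on II, 2 on III and 0 on I. These 20 made up 27.9% of the extent of V, whereas such stretches made up 9.84% of the other chromosomes together. Singly the others ran from 0% on I to 13.0% on II and 19.1% on IV, the chromosome nearest to V in density. V held 8 of the 10 longest stretches of the genome and 20 of the 50 longest. The longest of all, 552.9 kb, was on II. Fewer peaks leave longer stretches between them, and no test was run on lengths. The median stretch was 33.1 kb on V, against 31.5 kb on IV and 14.2 kb on I.

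**Figure D4:**
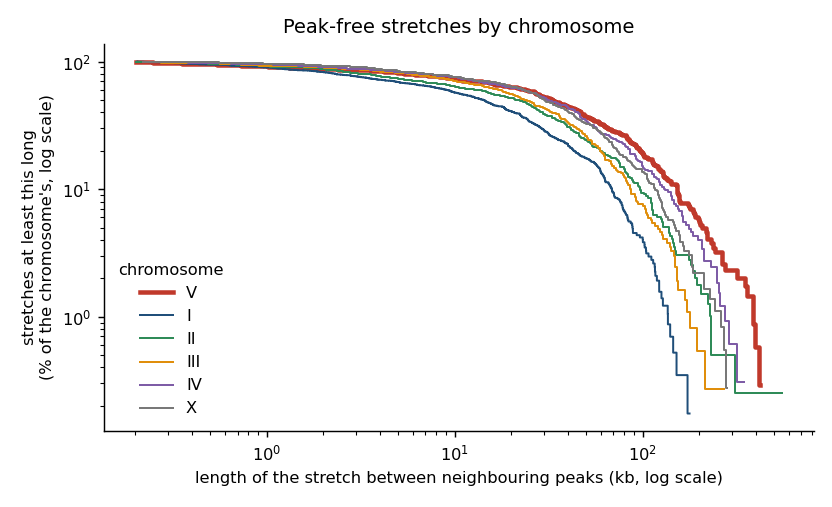
Share of the stretches between neighbouring peaks that are at least as long as the length on the x axis (kb), by chromosome, with log scales on both axes. Beyond about 100 kb the line of V lies above the others until its longest stretch, 421.6 kb, where the one longer stretch of II (552.9 kb) remains.

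The longest stretch of V ran from 8631720 to 9053330, or 421.6 kb, in the centre. The next ran from 15874114 to 16291249 (417.1 kb) in the right arm, and the third in length from 8102571 to 8500353 (397.8 kb), again in the centre. The fourth to the eighth began at 3206185 (387.3 kb), 18087159 (386.3 kb), 774075 (361.1 kb), 2249795 (350.8 kb) and 17452738 (319.9 kb). The list of 10 was completed by those that began at 342714 (275.4 kb) and 3886482 (266.1 kb). Of the 20 stretches above 200 kb, 8 lay in the left arm, 4 in the centre and 8 in the right arm.

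Several of these stretches followed each other with few peaks between them. From 7884829 to 9053330, 3 stretches above 200 kb summed to 1037 kb of 1.17 Mb, and the 6 peaks in this run gave 5.13 per Mb. The 6 peaks were not weak as a group, since 4 had a q-value below 1e-05 and the lowest was 3.18e-09. In the right arm, the 2.60 Mb from 15874114 to 18473494 held 16 peaks, or 6.16 per Mb, with 6 stretches above 200 kb that summed to 1812 kb. Of those 16 peaks, 3 had a q-value below 1e-05, against 21.3% of all peaks of the right arm. Both runs were picked after their values were seen and begin and end with a long stretch, so a low density was built into the choice.

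Which stretch is the longest depended on weak peaks. Several ended at a peak close to the limit of the list at 0.01, such as the 9053331 end of the longest one, where the next peak had a q-value of 0.00979. Among peaks with a q-value below 1e-05, the longest stretch of V ran from 2638985 to 4615466, or 1976 kb, in the left arm, and the next from 16356364 to 17857729, or 1501 kb. Among the best-ranked 1190 peaks of the list the longest was 1231 kb, from 2638985 to 3870455. Without the peaks under 50 bp the longest was 481.7 kb, from 15874114 to 16355789.

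Against this thin spread, some peaks of V lay close together. Of its 346 peaks, 55 (15.9%, exact Clopper-Pearson 95% interval 12.2 to 20.2%) had another peak of V within 2 kb, midpoint to midpoint. The share on the other chromosomes together was 15.4% (13.8 to 17.02%), from 8.77% on X to 23.7% on I. V, the least dense of the 6, came next after I, but its share was close to that of the others together. On II it was 14.6% (11.3 to 18.5%), and the differences were not tested. The 55 peaks of V formed 20 pairs and 5 groups of 3, and no group was larger. On I the largest group had 4 peaks.

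Each group of 3 spanned a few kilobases. The widest ran from 10715212 to 10720213, where peaks of 1004, 1410 and 1978 bp were 383 and 227 bp apart, with q-values of 1.67e-08, 0.000295 and 3.53e-05. They covered 4392 of the 5002 bp. The narrowest ran from 9338497 to 9340591 with peaks of 312, 288 and 429 bp and q-values of 0.00624, 6.02e-06 and 3.48e-06. It was followed after 2395 bp by the peak from 9342987 to 9344694, the fifth of V by q-value. The other 3 groups ran from 3714825 to 3718227, with a lowest q-value of 0.000617, from 12024087 to 12027292, with one of 1.93e-05, and from 19520140 to 19523147, with one of 2.04e-06. Of the 5 groups, 1 was in the left arm, 3 in the centre and 1 in the right arm.

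Clustered peaks of V were broader. Their median width was 560 bp, against 365 bp for the 291 isolated ones, and 15 of 55 (27.3%) were at least 1000 bp wide, against 32 of 291 (11.0%). Their median q-value was 0.000146, against 0.000600. None of the clustered peaks was under 50 bp, while 25 of the isolated ones were. No test was run on these widths, and a rule on midpoints leaves out neighbours that are both broad. A pair at 6223928 to 6225288 and 6225608 to 6228246, for example, was 319 bp apart at its edges and counted as isolated. The fullest windows of 100 kb on V were those from 19.5 to 19.6 and from 19.6 to 19.7 Mb, with 8 peaks each.

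The median width of V peaks was 403.5 bp (95% interval from order statistics 364 to 435 bp), close to the 400 bp (385 to 413 bp) of the other chromosomes. The spread was larger at both ends. On V, 47 peaks (13.6%, exact Clopper-Pearson 95% interval 10.2 to 17.7%) were at least 1000 bp wide, against 9.58% (8.34 to 10.9%) elsewhere, where the shares ran from 7.83% on I to 11.9% on IV. At the other end, 25 peaks of V (7.23%, 4.73 to 10.5%) were under 50 bp, against 3.44% (2.69 to 4.33%) elsewhere, where the highest share was 4.59% on III. The share of broad peaks on V was the highest of the 6 chromosomes, as was the share of narrow ones. No test was run on these shares.

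**Figure D5:**
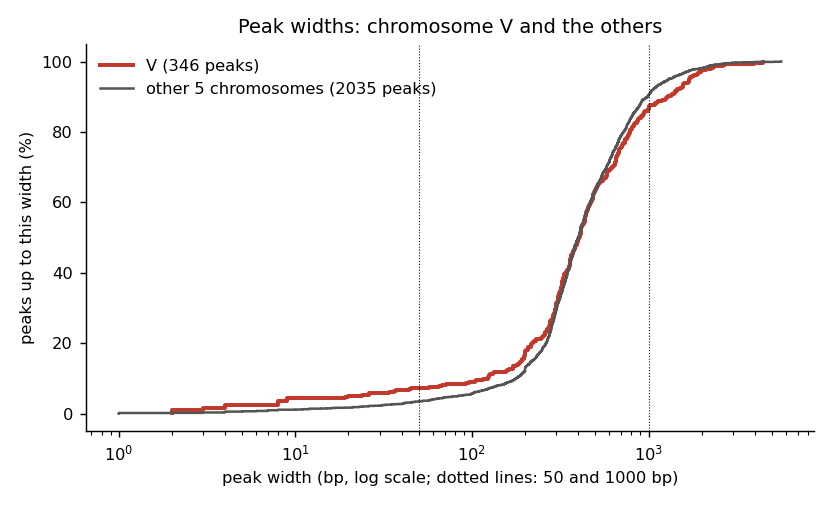
Cumulative share of peaks (percent) up to each width (bp, log scale) for the 346 peaks of V and the 2035 peaks of the other chromosomes. The lines cross near the shared median of about 400 bp, with V higher below 50 bp (7.23% against 3.44%) and lower at 1000 bp, where 13.6% of V peaks are at least that wide against 9.58% of the others.

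The narrow peaks of V were weak. All 25 had a q-value above 0.001, from 0.00107 to 0.00723, against 42.8% of all V peaks and 41.3% of the whole list. They were spread over the left arm (10), the centre (7) and the right arm (8). Narrow peaks of the other chromosomes were not compared with them by q-value. V held 15 of the 39 peaks of at most 10 bp in the whole list (38.5%, exact Clopper-Pearson 95% interval 23.4 to 55.4%), against its 14.5% of all peaks. The 4 narrowest, of 2 bp each, started at 4152535, 4223632, 4459543 and 11247149, and the fifth, of 3 bp, at 1510326. Their q-values lay between 0.00183 and 0.00645. All of them but the one at 11247149 lay in the left arm.

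The broad peaks were of mixed rank. Of the 47, 24 (51.1%) had a q-value below 1e-05, against 24.5% of the 274 peaks of at least 50 but under 1000 bp. They were even along V, with 17 in the left arm, 16 in the centre and 14 in the right. The widest, from 723804 to 728237, was 4434 bp and also had the lowest q-value of V, 1.45e-63. The next, from 14685204 to 14689180, was 3977 bp with 6.86e-24. The third and the fifth, however, from 6514934 to 6517653 (2720 bp) and from 5840483 to 5842830 (2348 bp), had q-values of 0.000461 and 0.000466, above the median of V, 0.000449. The fourth, from 6225608 to 6228246, was 2639 bp with 3.67e-15.

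The first and last peaks of V were both broad. The first ran from 8143 to 9328 (1186 bp, q-value 2.34e-10) and the last from 20840729 to 20842724 (1996 bp, 5.01e-05). Because the end of the last peak served as the extent, the distance of these peaks from the ends of the chromosome is not given.

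The 20 peaks of V with the lowest q-values lay 7 in the left arm, 8 in the centre and 5 in the right arm. They were 330 to 4434 bp wide with a median of 802.5 bp, and 9 were at least 1000 bp. The strongest, at 723804 to 728237, was also the third of the whole list, and stood in a sparse stretch, with 2 other peaks between the peak-free stretches that began at 342714 and 774075. Second came 1150358 to 1152084 (1727 bp, 2.90e-31), near the right end of the 361.1 kb stretch, and next 10174430 to 10175143 in the centre (714 bp, 6.49e-31). The fourth was 5049233 to 5050313 (1081 bp, 2.74e-27), the fifth 9342987 to 9344694 (1708 bp, 1.38e-24) and the sixth the 3977 bp peak at 14685204.

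The next 4 were 10896771 to 10897572 (802 bp, q-value 2.70e-21), 6223928 to 6225288 (1361 bp, 9.01e-19), 14055042 to 14055476 (435 bp, 7.24e-18) and 9730852 to 9731654 (803 bp, 2.81e-16). Of these first 10, 4 lay in the centre, all between 9342987 and 10897572, within the 2 fullest bins. The other 10 had q-values up to 9.91e-13. Among them, 2600602 to 2600931 (330 bp, 5.36e-14) ended the 350.8 kb stretch of the left arm, and 4827009 to 4827354 (346 bp, 6.12e-14) was followed by a stretch of 219.9 kb. These 2 strong peaks of V thus stood at the edges of empty stretches. Most edges of the 10 longest stretches were at weak peaks with q-values above 0.001, such as 0.00479 and 0.00980 beside the 387.3 kb stretch. Of all V peaks, 42.8% had a q-value above 0.001, and the difference was not tested.

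By rank, V held 3 of the first 20 peaks of the list, 10 of the first 100 (10%, exact Clopper-Pearson 95% interval 4.90 to 17.6%), 162 of the first 1190 (13.6%, 11.7 to 15.7%) and 184 of the other 1191 (15.4%, 13.4 to 17.6%). These intervals overlap. At the limit of 1e-10, 7.23% of the peaks of V (4.73 to 10.48%) were below it. On the other chromosomes pooled it was 242 of 2035 (11.9%, 10.52 to 13.4%), and these intervals narrowly do not overlap. Taken singly, II, III, IV and X had intervals that overlapped that of V, with lower limits of 7.51, 9.72, 8.59 and 7.47%. Only the interval of I, from 10.56%, did not. No test was run on these shares. The peaks of V covered 197.6 kb, or 0.948% of its extent, against 1.35% of the other chromosomes. By segment the covered share was 0.920% on the left, 1.08% in the centre and 0.848% on the right.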

How the data were processed

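ChIP and input DNA of L2 hermaphrodites had been sequenced in 2 libraries each. Replicate numbers come from the order of the samples. The authors deposited 1 combined list of 2381 peaks, called with PeakSeq on WormBase WS180, per the file headers. The aligner, the filters and any version are not given in the sources used here. The q-values deposited by the authors, 1 per peak, are all below 0.01. The list holds no counts and no value per replicate, so depth is unknown, replicates could not be compared, and intervals cover counting error over peaks only.

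Peaks of V were taken by chromosome, and the members and lists were chosen with earlier results of these data known. Midpoints placed peaks in 3 equal segments, bins and windows. Densities were compared by two-sided exact binomial tests with extents as exposure, adjusted by the Benjamini-Hochberg method over 5 tests per family. The tests were checked on simulated lists with peaks placed independently, so the check does not cover close neighbours. Widths, stretches and groups of peaks linked within 2 kb were described without a test. The peaks named were, by rule, the 20 lowest q-values, the 10 longest stretches, groups of 3, the 5 widest and 5 narrowest, and the first and last peak. Other peaks and runs were chosen after their values were seen. Alternatives changed the peaks used, the merging, the distance and the definition of the centre. Gene families were counted by symbol prefix in the RefSeq table. Python 3.11.15, scipy 1.17.1, numpy 2.4.6 and pandas 2.3.3 were used.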

Additional observations from a re-analysis of the deposited data

How the results depend on the processing

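For the 15 results, 59 alternative values were computed. Of these, 39 made no change to the call or, where there was no test, lay within the 95% interval (for the longest stretch, at the same value). A reversal was scored for tested ratios only, and 0 reversed. It could not be scored for left against right arm, whose ratio is exactly 1. The ratio of left to right arm, exactly 1 over all peaks, was 0.745 to 0.980 and did not pass. The density ratio of V to IV passed the exact binomial test in the best-ranked 1190 peaks (0.795), without peaks under 50 bp (0.840), with peaks merged (0.842) and below 1e-05 (0.668), and that to X (0.802) left it below 1e-05. The centre over the arms of V entered the test in the best-ranked 1190 (1.64), below 1e-05 (2.04) and with the centre at 50% of the extent (1.26). The centre of V against the other autosomes left it in the best-ranked 1190 (0.789) and without chromosome I (0.860). The share with a neighbour within 2 kb was 2.52% with merging, which removes close neighbours, 3.76% at 1 kb and 28.9% at 5 kb. The longest stretch was 1231 kb in the best-ranked 1190, 1976 kb below 1e-05 and 481.7 kb without peaks under 50 bp, since fewer peaks leave longer stretches. The median width was 552 bp in the best-ranked 1190 and 536 bp below 1e-05. In the best-ranked 1190, 24.1% of V peaks were at least 1000 bp wide and 0% were under 50 bp. For the tests, the cause was not tested. No paired analysis was possible because no value belongs to one replicate, so leaving out a replicate could not be done either. Unknown depth limits each peak-free stretch to one where no peak was detected.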

Other observations

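The q-values of the list can be read as more than a rank. Each q-value times its line number, divided by 20869, was compared, at a relative tolerance of 1e-11, with the one-sided binomial probability of a pair of whole numbers under even odds, for sums up to 2500. With 20869 all 2381 q-values fitted such a pair, and with 20868 or 20870 0 did. Each of the 346 peaks of V had a single pair, as did 2032 of the 2035 other peaks, and the remainder, all on chromosome I, were left out. The pairs are taken here as ChIP tags and input tags, the latter after any scaling by the caller. They are an inference from the authors' q-values and not values of the list, and a ratio of the pair is not independent of the q-value.

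On this reading the median peak of V had 95.5 ChIP tags (range 16 to 1056) and 43 input tags (1 to 483). The ratio of ChIP to input tags had a median of 2.34 on V, with quartiles of 1.86 and 3.18, against a median of 2.29 on the other chromosomes. In 119 peaks of V (34.4%) the ratio was under 2, against 31.7% elsewhere. The broad peaks of V had the lower ratios. Among the 47 of at least 1000 bp the median was 1.72, and 36 of them were under 2, whereas the 274 peaks of at least 50 but under 1000 bp had a median of 2.39. In the 25 peaks under 50 bp, ChIP tags numbered 16 to 20 and input tags 1 to 4, with a median ratio of 8. Those ratios rest on a few input tags.

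The centre of V, with its larger share of q-values below 1e-05, did not have the higher ratios. The median ratio was 2.28 in the centre, against 2.40 in the left arm and 2.42 in the right. The median number of ChIP tags was 109.5 in the centre, against 83 and 92.5 in the left and right arms, and the median number of input tags was 49, against 38 and 37.

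Ordered by ratio, other peaks of V came first. Over the 283 peaks that were not under 50 bp and had 10 input tags or more, the highest ratio was 5.53, at 10925588 to 10925986, with 83 ChIP tags and 15 input tags. The peak at 18967626 to 18967972 followed with 137 ChIP tags and 30 input tags, a ratio of 4.57. The peak at 10174430 to 10175143, the third of V by q-value, had 315 ChIP tags and 81 input tags, a ratio of 3.89. The strongest peak by q-value, at 723804 to 728237, had 1056 ChIP tags and 405 input tags, a ratio of 2.61. The 3977 bp peak at 14685204 had 872 ChIP tags and 483 input tags, a ratio of 1.81.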
